A study of Homo sapiens with 4 samples.

Results

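The MHC class I presentation genes described here were 9 of the 58037 genes in the count table: the heavy chain genes HLA-B, HLA-C, HLA-E and HLA-F, the light chain gene B2M, the peptide transporter genes TAP1 and TAP2, the tapasin gene TAPBP, and the transactivator gene NLRC5. They were found in the table by symbol, through their Ensembl identifiers, with no threshold on a measured value, and the choice of these genes was made with earlier results of the same data known. Each had 1 row in the table, and all 9 had enough counts to be tested. RNA was sequenced from OCI-AML3, an established human acute myeloid leukemia (AML) cell line, 72 hours (3 days) after transfection with a control guide RNA (sgRNA Ctrl, sgNeg in the labels, 2 libraries) or with sgNPM1A, a CRISPR-Cas9 guide against the mutant allele of NPM1 (mtNPM1, 2 libraries). NPM1 encodes nucleophosmin, a nucleolar chaperone that the mutation moves to the cytoplasm. Before transfection the cells of both groups carried a heterozygous NPM1 mutation, a heterozygous DNMT3A mutation and a homozygous NRAS mutation. The guide, which with sgNPM1A targets the mutant NPM1 allele, is the only difference between the groups that the sources describe. The cells sequenced were the transfected culture of a single line, and the share of edited cells was not given for these libraries. The legend of the study calls the libraries biological replicates, and what made them separate was not described further.

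Nucleated cells show peptides from their own proteins on MHC class I molecules, each made of a heavy chain, beta-2 microglobulin and a peptide. Proteasomes cut proteins into peptides, the TAP1-TAP2 transporter carries them into the endoplasmic reticulum, and tapasin holds empty class I molecules at the transporter until a peptide fits. HLA-B and HLA-C, which vary greatly between people, present peptides to CD8 T cells and also engage receptors of natural killer cells. HLA-E presents mainly peptides cut from the leader sequences of other class I chains, to the NKG2A receptor of natural killer cells, and HLA-F is mostly kept inside the cell. NLRC5 has no DNA-binding domain of its own and drives class I promoters together with the RFX, CREB/ATF and NF-Y factors bound at their W/S, X and Y boxes. Interferons raise the same genes through the ISRE, which interferon regulatory factors bind.

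Promoter windows were taken from RefSeq (GRCh38.p14) for the 7 members that had an entry, which leaves HLA-E and NLRC5 without one, and each was searched on both strands over the 250 bases before the start site. They are printed because NLRC5 and interferons are known to act through such letters, and because members that hold them moved in different directions. Capitals mark 3 kinds of match: the ISRE core (GAAA, 2 bases of any kind, and GAAA again), the X2 box (TGACGC) and the Y box (ATTGG), each also as its reverse complement, and overlapping matches run together in 1 stretch of capitals.
HLA-B, chr6:31357180-31357429, minus strand: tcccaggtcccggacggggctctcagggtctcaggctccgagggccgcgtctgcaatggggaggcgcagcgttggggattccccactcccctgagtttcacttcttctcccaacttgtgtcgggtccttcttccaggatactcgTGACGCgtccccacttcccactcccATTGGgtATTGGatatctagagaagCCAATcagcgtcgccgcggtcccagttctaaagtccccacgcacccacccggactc
HLA-C, chr6:31272093-31272342, minus strand: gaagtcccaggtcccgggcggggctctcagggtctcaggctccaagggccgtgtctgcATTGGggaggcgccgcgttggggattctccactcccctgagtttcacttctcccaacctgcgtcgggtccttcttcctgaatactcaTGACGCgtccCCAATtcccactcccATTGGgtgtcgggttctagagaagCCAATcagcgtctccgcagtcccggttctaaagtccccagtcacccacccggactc
HLA-F, chr6:29723184-29723433, plus strand: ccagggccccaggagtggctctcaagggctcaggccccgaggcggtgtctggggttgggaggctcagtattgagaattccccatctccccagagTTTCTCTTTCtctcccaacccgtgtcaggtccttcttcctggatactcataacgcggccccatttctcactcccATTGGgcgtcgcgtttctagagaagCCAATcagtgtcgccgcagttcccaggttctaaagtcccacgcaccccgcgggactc
B2M, chr15:44711267-44711516, plus strand: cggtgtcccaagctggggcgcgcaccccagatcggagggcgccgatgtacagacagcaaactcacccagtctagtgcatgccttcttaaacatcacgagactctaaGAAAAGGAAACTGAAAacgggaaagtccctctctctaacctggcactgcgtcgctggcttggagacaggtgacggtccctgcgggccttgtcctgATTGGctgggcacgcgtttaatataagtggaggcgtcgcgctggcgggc
TAP1, chr6:32853705-32853954, minus strand: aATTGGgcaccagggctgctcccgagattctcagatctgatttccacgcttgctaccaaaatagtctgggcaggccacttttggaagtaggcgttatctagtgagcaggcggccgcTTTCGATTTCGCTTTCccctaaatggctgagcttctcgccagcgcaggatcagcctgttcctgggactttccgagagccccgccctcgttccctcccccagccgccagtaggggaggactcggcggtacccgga
TAP2, chr6:32838740-32838989, minus strand: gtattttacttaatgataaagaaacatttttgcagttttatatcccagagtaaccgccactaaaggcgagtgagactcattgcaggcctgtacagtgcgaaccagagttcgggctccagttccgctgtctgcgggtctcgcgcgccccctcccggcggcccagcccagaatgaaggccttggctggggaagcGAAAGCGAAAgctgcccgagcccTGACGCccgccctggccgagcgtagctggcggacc
TAPBP, chr6:33314079-33314328, minus strand: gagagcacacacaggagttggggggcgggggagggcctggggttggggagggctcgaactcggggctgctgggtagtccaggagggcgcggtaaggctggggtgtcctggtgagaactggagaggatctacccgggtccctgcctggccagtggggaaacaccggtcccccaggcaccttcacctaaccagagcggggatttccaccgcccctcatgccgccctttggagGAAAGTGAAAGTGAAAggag

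HLA-B and HLA-C, which both rose, held an X2 box about the same distance before the start (bases 106 to 101 and bases 105 to 100) and several Y boxes. Neither held an exact match to the ISRE core in this window, and looser forms of the ISRE were not searched. HLA-F, whose groups overlapped, kept Y boxes and an ISRE core (bases 156 to 147) but held no exact X2 box. B2M, which rose, had 2 overlapping ISRE cores (from base 144 to base 129) and a Y box at bases 49 to 45. TAP1, which fell, also had 2 overlapping ISRE cores (from base 134 to base 119), with its Y box at the far end of the window, at bases 249 to 245. TAP2 had an ISRE core at bases 58 to 49 and an X2 box at bases 35 to 30, and TAPBP had 2 overlapping ISRE cores close to the start, from base 20 to base 5. ISRE cores were thus in windows of genes that rose, that fell and that were not called. Of all 35116 windows in the RefSeq table, 3.02% held the ISRE core against 5 of the 7 members, 7.67% the X2 box against 3, and 32.0% the Y box against 5. The loose NF-kappaB form (GGG and CC 5 bases apart) was in 6 members and in 54.4% of all windows, and the GC box (GGGCGG) in 4 members and 42.6%. The GAS form (TTC and GAA 3 bases apart) and the full CRE were in 0 of the 7, against 6.57% and 1.65% of all windows. A match gives letters only, and a window without a match says nothing of the factor.

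Libraries held from 25069484 to 28276391 counts, so that 3 counts, the smallest number told from 0, were 0.108 to 0.118 CPM (counts scaled to a common library size by edgeR's TMM method), counting error only. Nothing set a library apart in mitochondrial counts (8.37% to 8.63%). NPM1 itself, counted over both alleles, stood at 1319 and 1385 CPM with sgRNA Ctrl and at 1189 and 1132 CPM with sgNPM1A, which gave a log2 fold change of -0.22 (SE 0.07, adjusted p = 0.0360 by the edgeR quasi-likelihood test) that missed the fold threshold. The line had the myeloid transcripts that its label implies. Of 7 myeloid markers 5 rose (71.4%, against 20.8% of all tested genes), LYZ (lysozyme) by 3.63, ITGAM (CD11b) by 2.33, MPO (myeloperoxidase) by 1.77, CSF1R (the M-CSF receptor) by 1.22 and ANPEP (CD13) by 0.49 on the log2 scale. CD33 (0.06) and CD14 (0.34) were not called. The summed level of the 7 was 448 to 483 CPM with sgRNA Ctrl and 2892 to 3620 CPM with sgNPM1A. LYZ alone, at 2643 and 3367 CPM, made up most of the sum with sgNPM1A. Of 15 markers of other cells that were measured, 7 were at 0 in each library, among them CD3D, CD3E, CD2, MS4A1, JCHAIN and HBB in all 4. Of the others 4 were tested and 1 changed (25%, against 20.8% of all tested genes), the collagen gene COL1A2, which fell by 1.33 on the log2 scale. The summed level of the 15, also without TMM scaling, was 34.3 to 35.6 CPM with sgRNA Ctrl and 15.1 to 17.7 CPM with sgNPM1A. COL1A2 alone made up most of this sum in every library. After TMM scaling it stood at 27.5 and 28.6 CPM with sgRNA Ctrl and at 13.0 and 9.33 CPM with sgNPM1A. These marker changes went along with every change below, and their part in it was not tested. In bulk RNA, fewer cells that make a transcript and less of it per cell cannot be told apart.

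With mtNPM1 KO the class I genes did not move as a group. HLA-B, HLA-C, B2M and NLRC5 rose to between 129.9% and 141.3% of control, TAP1 fell to 79.3% of its control level, and TAP2, TAPBP, HLA-E and HLA-F were not called. Calls needed an adjusted p (Benjamini-Hochberg over all 15718 tested genes) under 0.05 together with a log2 fold change of at least 0.322 in size, which in the lower direction means at most 80% of control. Of the 9 members 4 were called higher, where 10.5% of all tested genes were, and 1 lower, where 10.3% of all tested genes were, so 55.6% of the members were called in either direction against 20.8% of all tested genes. The median log2 fold change of the members was 0, as it was over all tested genes, and the members ranged from -0.34 to 0.50. In 6 of the 9 the groups did not overlap in CPM, where 63.1% of all tested genes did not. The plot of the values by library gives every library of each gene.

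**Figure D1:**
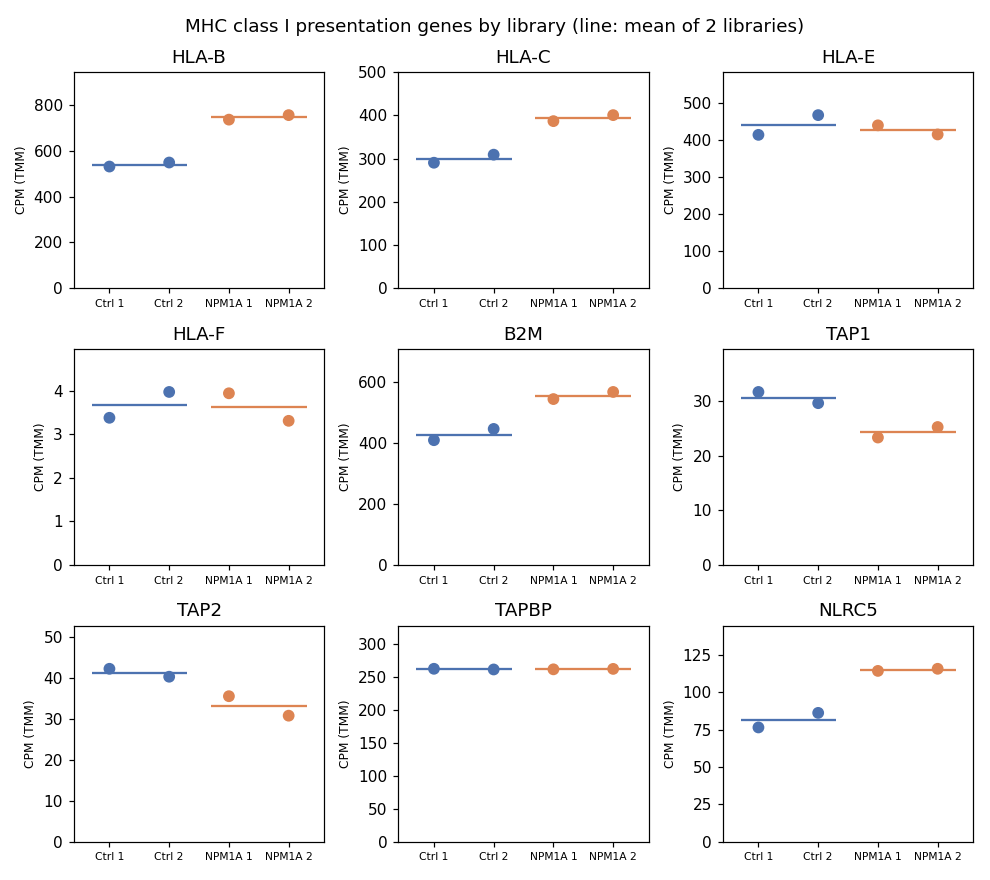
Level of each of the 9 genes in each library, in CPM scaled by TMM on an axis that starts at 0, with sgRNA Ctrl libraries in blue, sgNPM1A libraries in orange and a line at the mean of 2 libraries. HLA-B, HLA-C, B2M and NLRC5 lie higher in both sgNPM1A libraries, TAP1 and TAP2 lie lower in both, and HLA-E, HLA-F and TAPBP overlap.

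Among the heavy chains, HLA-B (ENSG00000234745.9, chr6:31353875-31357179 on GRCh38, minus strand) was the most abundant in CPM. Its level was 531 and 549 CPM in the sgRNA Ctrl libraries and 736 and 756 CPM in the sgNPM1A libraries. Both sgNPM1A libraries lay far above both controls, and the gap between the groups was many times the spread within them (540 ± 12.5 against 746 ± 14.0 CPM, SD, n = 2 each). The log2 fold change was 0.47 (SE 0.07), a fold of 1.38 with a 95% interval of the log2 value from 0.32 to 0.61 (adjusted p = 0.000354, edgeR), the smallest adjusted p of the 9 genes. HLA-C (ENSG00000204525.15, chr6:31268749-31272092, minus strand), its neighbour in the class I region, had 290 and 309 CPM with sgRNA Ctrl and 387 and 400 CPM with sgNPM1A. The groups were again apart (299.6 ± 13.2 against 394 ± 9.84 CPM, SD, n = 2 each), and the log2 fold change was 0.39 (SE 0.07), a fold of 1.31 with a 95% interval from 1.19 to 1.45 (adjusted p = 0.00125, edgeR). Both genes kept their calls when any 1 library was left out.

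HLA-E (ENSG00000204592.8, chr6:30489509-30494194), which varies little in sequence between people, was not called. It had 414 and 468 CPM with sgRNA Ctrl and 440 and 415 CPM with sgNPM1A, so that the sgNPM1A values fell within the range of the controls. The log2 fold change was -0.04 (SE 0.08) and the fold 0.97, with a 95% interval from 0.865 to 1.09 (adjusted p = 0.716, edgeR) that does not reach the fold threshold in either direction. HLA-F (ENSG00000204642.13, chr6:29723434-29738532, plus strand) was the rarest member, with 86 and 103 counts against 110 and 92, or 3.38 and 3.98 CPM against 3.95 and 3.31 CPM. Its groups overlapped, and the fold of 0.986 had a 95% interval from 0.748 to 1.301 (adjusted p = 0.951, edgeR), which at this depth still allows a change past the threshold either way.

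B2M (ENSG00000166710.17, chr15:44711517-44718145, plus strand) encodes beta-2 microglobulin, the light chain that every class I molecule needs to reach the surface. Its level was 408 and 445 CPM with sgRNA Ctrl and 543 and 566 CPM with sgNPM1A. Both sgNPM1A libraries were above both controls (427 ± 26.1 against 554 ± 16.5 CPM, SD, n = 2 each), with a log2 fold change of 0.38 (SE 0.07), a fold of 1.299 with a 95% interval from 1.17 to 1.45 (adjusted p = 0.00238, edgeR). Without sgRNA Ctrl 1 the log2 fold change was 0.32, just under the fold threshold, and the call was lost although the adjusted p was 0.00725. B2M lies outside the MHC and starts 127 bases from PATL2, which is read from the other strand. PATL2 was low, at 1.05 CPM with sgRNA Ctrl and 1.38 CPM with sgNPM1A (log2 fold change 0.39, adjusted p = 0.348, edgeR).

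NLRC5 (ENSG00000140853.15, chr16:56989557-57083520), the transactivator of class I genes, had the highest fold of the 9 by its estimate. It had 76.5 and 86.3 CPM with sgRNA Ctrl and 114 and 116 CPM with sgNPM1A. The sgNPM1A libraries lay close together and well above the controls (81.4 ± 6.89 against 115 ± 1.00 CPM, SD, n = 2 each). The log2 fold change was 0.50 (SE 0.08), a fold of 1.41 with a 95% interval from 1.26 to 1.59 (adjusted p = 0.000626, edgeR), and the call held whichever library was left out. None of its 50-base words, nor any of B2M, occurred in another annotated gene.

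Both peptide transporter genes had lower values with sgNPM1A. TAP1 (ENSG00000168394.10, chr6:32845209-32853704, minus strand), which encodes one of the pair of chains of the transporter, had 31.7 and 29.7 CPM with sgRNA Ctrl and 23.4 and 25.3 CPM with sgNPM1A. Its groups did not overlap (30.7 ± 1.45 against 24.3 ± 1.36 CPM, SD, n = 2 each), and the log2 fold change was -0.34 (SE 0.09), 79.3% of control (adjusted p = 0.0183, edgeR). The call was lost without sgRNA Ctrl 1 (log2 fold change -0.29, adjusted p = 0.0615), without sgNPM1A 1 (-0.28, adjusted p = 0.200) and without sgNPM1A 2 (-0.39, adjusted p = 0.0528), and it held without sgRNA Ctrl 2. TAP2 (ENSG00000204267.13, chr6:32821831-32838739, minus strand), the other chain, had 42.3 and 40.3 CPM with sgRNA Ctrl and 35.6 and 30.8 CPM with sgNPM1A. These groups did not overlap either, and the adjusted p was 0.0256 by edgeR, but the log2 fold change of -0.32 (SE 0.09), 80.4% of control, stopped short of the fold threshold and TAP2 was not called. It passed both thresholds without sgRNA Ctrl 2 (-0.35, adjusted p = 0.0316) or without sgNPM1A 1 (-0.42, adjusted p = 0.0228, edgeR), and with library size only or upper quartile scaling. The 95% intervals of the fold overlapped almost wholly between TAP1 (0.691 to 0.910) and TAP2 (0.700 to 0.924), so that the line between called and not called separates nearly equal values.

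TAPBP (ENSG00000231925.11, chr6:33299694-33314078, minus strand) encodes tapasin and was the flattest of the 9 genes. It had 261.9 and 260.9 CPM with sgRNA Ctrl and 261.1 and 261.8 CPM with sgNPM1A, and all 4 libraries lay nearly level. The fold was 1.00 with a 95% interval from 0.910 to 1.10 (adjusted p = 0.999, edgeR). The plot of the changes sets the intervals side by side. Those of the called genes must exclude 0, because interval and p come from the same test. The interval of TAP2, which was not called, also excludes 0.

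**Figure D2:**
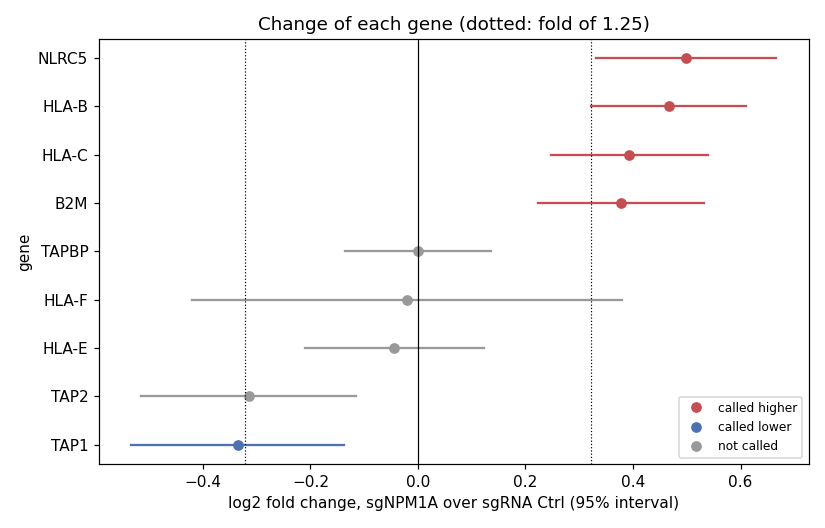
Log2 fold change of each gene, sgNPM1A over sgRNA Ctrl, with its 95% interval (edgeR, 2 libraries per group), called genes in red (higher) and blue (lower) and dotted lines at the fold threshold (0.322 on the log2 scale) in each direction. NLRC5, HLA-B, HLA-C and B2M lie to the right at 0.38 to 0.50, TAP1 and TAP2 to the left at -0.34 and -0.32, and TAPBP, HLA-F and HLA-E around 0.

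How the counts were made limits these genes unequally. HLA-B shared 41.4% of its annotated 50-base words with other genes, chiefly the pseudogene DHFRP2 (27.9%), which had 0 counts in every library, while HLA-C shared 5.79%, HLA-E 5.19% and HLA-F 21.2%. For TAP2 18.5% of the words, and for TAPBP 21.8%, were shared, mostly with a gene annotated over the same bases. TAP1 overlapped the antisense RNA PSMB8-AS1 over 14.2% of its exon bases. PSMB8-AS1 had 199 and 259 counts with sgRNA Ctrl and 389 and 378 with sgNPM1A and was called higher (log2 fold change 0.63, adjusted p = 0.00527, edgeR), the direction opposite to TAP1, and whether the counting used strand was not given in the sources used here. HLA genes differ between people, and the loss of reads of this line's own alleles against the reference genome was not measured, so levels of different HLA genes are less certain than the change of 1 gene between libraries of the same line.

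Per kilobase of annotated exon, HLA-E, B2M, HLA-C and HLA-B stood far above the machinery that loads them. With sgRNA Ctrl the order was HLA-E (151 ± 12.9 CPM per kilobase, SD, n = 2), B2M (137 ± 8.35), HLA-C (119.5 ± 5.26), HLA-B (117 ± 2.69), TAPBP (39.3), NLRC5 (6.57 ± 0.556), TAP1 (6.47 ± 0.307), TAP2 (3.99) and HLA-F (0.853). Neighbours whose libraries overlapped were HLA-E and B2M, HLA-C and HLA-B, and NLRC5 and TAP1. With sgNPM1A the order began with B2M (178 ± 5.27), followed by HLA-B (161 ± 3.02), HLA-C (157 ± 3.93) and HLA-E (146 ± 5.96), and only HLA-B and HLA-C still overlapped. HLA-E, which overlapped B2M at the top of the control order, was thus in the fourth place with sgNPM1A without a called change of its own. NLRC5 (9.29 ± 0.0808) and TAP1 (5.13 ± 0.288), level with each other in the control, were apart with sgNPM1A. These levels divide by the union of annotated exons (2.51 kilobases for HLA-C and 4.62 for HLA-B). For HLA-B that union is longer than its RefSeq span of 3305 bases. DHFRP2, which had 0 counts, shares 30.7% of its bases. A shorter length would raise HLA-B per kilobase. The place of HLA-B, its share of the heavy chains below and any place between close neighbours thus rest on the annotation as well as on the counts.

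**Figure D3:**
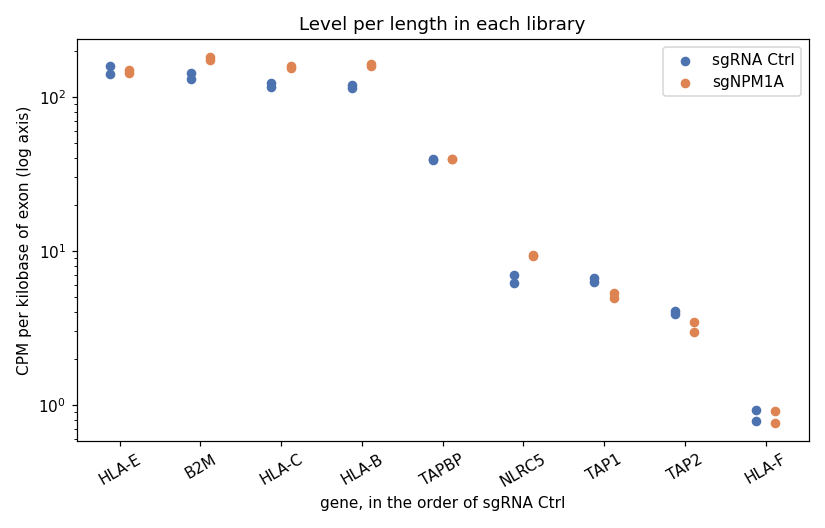
Level of each gene per kilobase of exon in each library (CPM per kilobase, log axis), sgRNA Ctrl in blue and sgNPM1A in orange, in the order of the control means. By annotated exon length HLA-E is highest with sgRNA Ctrl at 151 CPM per kilobase and B2M with sgNPM1A at 178, while TAPBP, NLRC5, TAP1, TAP2 and HLA-F lie below 40 in both groups. The place of HLA-B depends on its annotated length, which is longer than its RefSeq span.

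The make-up of the heavy chain transcripts also differed between the groups. Among the 4 heavy chain genes described here, taken per kilobase and with other class I heavy chains left out of the sum, HLA-E made up 38.0% and 39.7% with sgRNA Ctrl and 32.4% and 30.5% with sgNPM1A, with means of 38.9% and 31.4%. HLA-B went from 30.8% and 29.5% to 34.3% and 35.1%, and HLA-C from 31.0% and 30.6% to 33.2% and 34.3%. HLA-F made up at most 0.229%. Each of these shares was apart between the groups, with an exact two-sided permutation p of 0.333, the smallest that 2 libraries against 2 can give, so no share could pass a threshold of 0.05. On raw counts, without dividing by length, the mean share of HLA-E was 34.3% and then 27.2%, that of HLA-B 42.1% and then 47.5%, and that of HLA-C differed by 1.72 percentage points in place of 2.91. The summed level of the 4 heavy chain genes was 1239 and 1329 CPM with sgRNA Ctrl and 1567 and 1575 CPM with sgNPM1A.

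**Figure D4:**
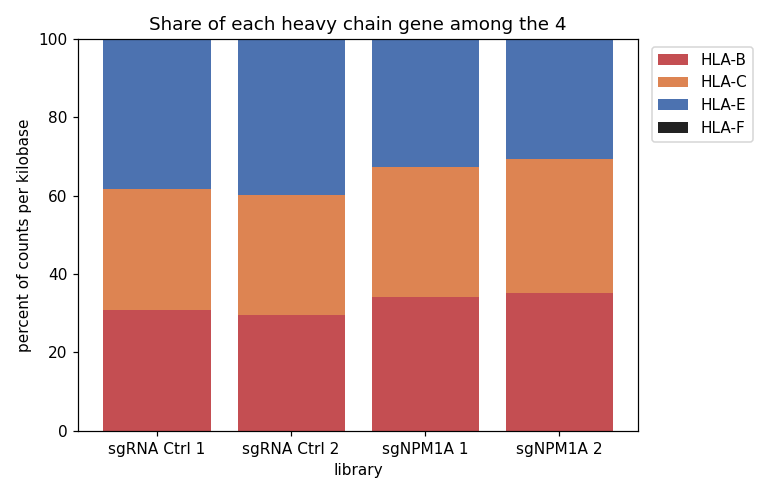
Share of HLA-B (red), HLA-C (orange), HLA-E (blue) and HLA-F (black, too thin to see) in the summed level of these 4 genes in each library, in percent of counts per kilobase. The blue share of HLA-E takes 38.0% and 39.7% in the sgRNA Ctrl libraries and 32.4% and 30.5% in the sgNPM1A libraries.

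Ratios between partners followed from the same values. B2M per unit of summed heavy chain was 0.351 and 0.354 with sgRNA Ctrl and 0.374 and 0.389 with sgNPM1A, higher in both sgNPM1A libraries. The ratio of TAP1 to TAP2 was 1.64 and 1.61 against 1.44 and 1.79, overlapping between the groups (exact permutation p = 1). TAPBP to TAP1 went from 5.89 and 6.27 to 7.97 and 7.38. HLA-B to HLA-C was 0.993 and 0.964 against 1.03 and 1.02. All 9 genes together took 0.209% and 0.222% of all counts with sgRNA Ctrl and 0.251% and 0.254% with sgNPM1A (exact permutation p = 0.333, the smallest possible).

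Upstream of the transporter, of 12 proteasome, PA28 and peptidase genes that make or trim class I peptides 2 changed (16.7%, against 20.8% of all tested genes), both lower, and the median log2 fold change was -0.05. Without sgNPM1A 2, 1 of the 12 was called lower. PSMB9, which encodes the LMP2 subunit of the immunoproteasome, had 38.0 and 46.4 CPM with sgRNA Ctrl and 30.5 and 27.8 CPM with sgNPM1A, or a log2 fold change of -0.54 (SE 0.10, adjusted p = 0.00316, edgeR). It starts 488 bases from TAP1 on the opposite strand, so the printed TAP1 window lies between the start sites of genes that were both called lower. The immunoproteasome partners PSMB8 (log2 fold change 0.14, adjusted p = 0.162) and PSMB10 (0.06, adjusted p = 0.632) were not called. ERAP2, an aminopeptidase that trims peptides in the endoplasmic reticulum, had 22.9 and 27.7 CPM against 20.2 and 18.2 CPM (log2 fold change -0.40, adjusted p = 0.0214, edgeR). Of 8 chaperones and loading factors 1 changed (12.5%, against the same 20.8%, median 0.07). It was HSPA5, the general chaperone BiP, from 385 ± 51.8 to 492 ± 77.0 CPM (adjusted p = 0.0352, edgeR), while calreticulin, calnexin and PDIA3 were not called. HSPA5 lost its call with DESeq2, with scaling by library size only, without sgRNA Ctrl 2 and without sgNPM1A 2.

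Of 17 factors that act on class I promoters 2 changed (11.8%, against the same 20.8%), both lower, with a median of -0.07. The number called lower was 5 without sgRNA Ctrl 2, and 2 were called higher without sgRNA Ctrl 1 and 1 without sgNPM1A 2 or with the replicate number as a block in the model. IRF1, the interferon regulatory factor that activates ISRE sites, had 78.5 and 90.4 CPM with sgRNA Ctrl and 45.2 and 39.2 CPM with sgNPM1A. Both controls were well above both sgNPM1A libraries, with a log2 fold change of -1.001 (SE 0.10, adjusted p = 1.925e-05, edgeR). IRF2, which binds the same sites, fell from 34.5 ± 0.894 to 21.4 ± 0.323 CPM (log2 fold change -0.69, adjusted p = 0.000137, edgeR). The RFX subunits on which NLRC5 relies were not called: RFX5 at -0.25 (adjusted p = 0.0382, under the fold threshold), RFXANK at 0.13 (adjusted p = 0.211) and RFXAP at -0.03 (adjusted p = 0.928).

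Of 15 interferon signalling genes 3 rose and 1 fell (26.7% called, against 20.8% of all tested genes, median 0.05). The number called higher changed with some libraries left out. IRF8, a myeloid interferon regulatory factor, rose from 637 ± 32.7 to 1107 ± 23.99 CPM (log2 fold change 0.80, adjusted p = 1.084e-05), STAT2 from 45.9 ± 0.992 to 69.2 ± 1.23 CPM (0.59, adjusted p = 0.000140) and JAK2 from 4.36 ± 1.46 to 7.67 ± 0.758 CPM (0.82, adjusted p = 0.0115, edgeR). USP18, which damps interferon receptor signalling, fell to 1.26 ± 0.352 from 2.81 ± 0.202 CPM (-1.15, adjusted p = 0.00511, edgeR). Of 27 tested interferon-stimulated genes, out of 32 listed and with no class I gene among them, 16 fell and 1 rose (63.0% called, against the same 20.8%). The number higher was 2 without sgRNA Ctrl 2 or with that block, and 3 when the block crossed the numbers. Their median log2 fold change was -0.50, where that of the 9 class I genes was 0. The number of interferon-stimulated genes called lower was 15 with DESeq2 and 13 with at least 10 counts in every library. With a fold of at least 2 it was 7. GBP4 had 12.2 and 13.8 CPM against 3.48 and 2.88 CPM (log2 fold change -2.03, adjusted p = 3.225e-06, edgeR), and the antiviral enzyme genes OAS2 (-1.70), OAS3 (-1.70) and OAS1 (-1.93) also fell. The gene of the list that rose was TRIM22 (0.53, adjusted p = 0.000772, edgeR). In the plot of the gene lists the interferon-stimulated genes lie mostly to the left of 0 and the 9 class I genes on both sides of it.

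**Figure D5:**
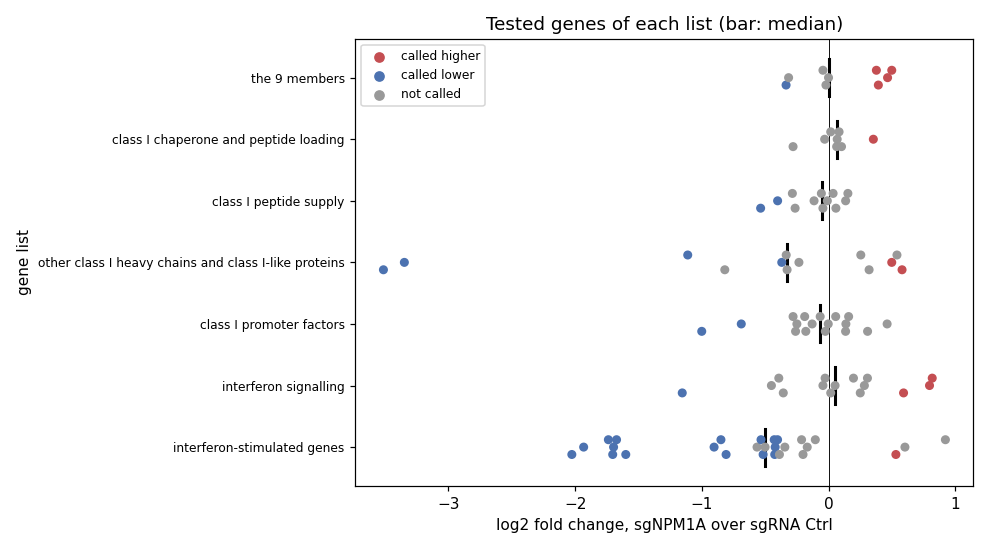
Log2 fold change, sgNPM1A over sgRNA Ctrl, of each tested gene of the 9 genes and of the lists named on the axis, with red points called higher, blue points called lower, grey points not called and a black bar at the median. The median is 0 for the 9 genes and -0.50 for the interferon-stimulated genes, of which 16 of 27 are blue and 1 is red.

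Other class I heavy chains and class I-like proteins changed in both directions, 2 of 13 tested genes higher and 4 lower (median -0.33, with 17 listed). This was 46.15% called, against 20.8% of all tested genes. Without sgNPM1A 1 the number lower was 2. FCGRT, the heavy chain of the neonatal Fc receptor, which pairs with B2M, rose from 158 ± 4.16 to 237 ± 1.51 CPM (log2 fold change 0.58, adjusted p = 5.436e-05, edgeR). MR1, which shows vitamin B metabolites to MAIT cells and also pairs with B2M, rose from 26.8 ± 1.52 to 37.9 ± 0.456 CPM (0.50, adjusted p = 0.00131). The lipid-presenting CD1A had 176 and 227 counts with sgRNA Ctrl and 27 and 11 with sgNPM1A (log2 fold change -3.51, adjusted p = 5.563e-06), and CD1C had 130 and 173 against 23 and 9 (-3.35, adjusted p = 1.461e-05, edgeR). Partners of beta-2 microglobulin both rose and fell while B2M itself rose. Of 8 class I pseudogenes 2 were tested, at log2 fold changes of 0.02 and 0.30, and neither was called, though 1 was called higher without sgRNA Ctrl 2.

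Few class II genes were tested in this line, with 5 of 14 genes tested and HLA-DRA at 2, 2, 5 and 2 counts. Of the 5, 2 changed, both lower (40%, against 20.8% of all tested genes, median -0.36). They were HLA-DMA, the peptide exchange factor, at a log2 fold change of -0.80 (adjusted p = 0.0359), and the lysosomal protease gene CTSS at -0.36 (adjusted p = 0.00472, edgeR). The number lower was 0 without sgNPM1A 1, and 1 without any other single library or with DESeq2. Of 11 tested genes for removal and recycling of class I, out of 13, 1 rose (9.09%, against the same 20.8%, median -0.003). It was the ubiquitin ligase gene MARCHF9, from 18.4 ± 1.19 to 26.4 ± 0.301 CPM (adjusted p = 0.00201, edgeR). Of 9 genes for receptors that bind class I 3 were tested and 1 changed (33.3%, against the same 20.8%). It was LILRB1, which fell from 12.1 ± 0.640 to 8.70 ± 0.841 CPM (adjusted p = 0.0170, edgeR) and lost its call without sgNPM1A 2. The genes whose values over the 4 libraries were most like those of HLA-B, the member with the smallest adjusted p, were TPM4, GPN3 and TYROBP. Their distances, as root sums of squared differences in centred log2 CPM over 4 libraries, were 0.021, 0.0236 and 0.0264 among 10180 genes averaging 5 CPM or more, a likeness over 2 groups that any gene with the same shift has.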

How the data were processed

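RNA-Seq gene counts of 4 OCI-AML3 libraries, 2 per group, were used as deposited. The authors mapped read pairs to hg38 with STAR and Samtools and deposited raw counts per Ensembl gene in 1 table; the program that counted the reads, its use of strand and the annotation release are not given in the sources used here. The culture medium is RPMI in the study's methods and alpha-MEM in the labels. Symbols were found for 55646 of 58037 genes. In R 4.3.3, edgeR 4.0.16 was used with filterByExpr by group (minimum count 10), TMM, robust dispersions and the two-sided quasi-likelihood F test over 15718 genes, and a gene was called when its adjusted p was under 0.05 and it changed by 1.25 times or more. The script was tested on simulated data. The edgeR p-values set each difference against the spread between these libraries, with the dispersion of each gene moderated across all tested genes. What made the libraries of a group separate was not described, so the source of that spread is not known.

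Positions and promoters are from RefSeq (GRCh38.p14). Exon lengths, overlaps and shared 50-base words are from GENCODE on GRCh37, which changes no count. Shares and ratios were set beside exact permutation tests.

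The members and the gene lists were chosen with earlier results of these data known, so no list is independent support. The text names all 9 members, NPM1, up to 4 called genes per list with the smallest adjusted p (every called gene in lists of at most 12), the 3 genes nearest to HLA-B and genes sharing a start region. Named outside this rule, after their values were seen, were PSMB8, PSMB10, calreticulin, calnexin, PDIA3, RFX5, RFXANK, RFXAP, HLA-DRA, TRIM22, PSMB8-AS1, CD33, CD14 and the markers at 0. Alternatives were DESeq2 1.42.0, limma 3.58.1 (trend, on quantile-normalized log2 CPM), other scalings, filters and folds, a replicate block and leaving out each library. Same-numbered libraries tended to deviate from their group means in opposite directions, so the replicate numbers were not taken as pairs. The correlation was -0.13 over all tested genes and -0.52 over genes above 10 CPM.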

Additional observations from a re-analysis of the deposited data

How the results depend on the processing

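HLA-B, HLA-C and NLRC5 kept direction and call under all 13 refits each (log2 fold changes of 0.42 to 0.49, 0.35 to 0.44 and 0.42 to 0.59). Of 117 refitted values of the 9 members, 100 kept their direction and side of the thresholds, 4 lost a call, 4 gained one and 9 changed sign, the last in genes that were not called.

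With a fold of at least 2, 498 genes were higher and 502 lower, 0 members were higher and 0 lower. The members called lower were 2 with library size only, with upper quartile scaling and with no fold threshold, TAP2 joining TAP1, and 0 to 2 on leaving out 1 library, where those called higher were 3 to 4. TAP2 was then called at -0.36 with library size only, -0.32 with upper quartile, -0.35 without sgRNA Ctrl 2 and -0.42 without sgNPM1A 1. On leaving out 1 library HLA-E ranged from -0.128 to 0.048 (above 0 without sgRNA Ctrl 2), HLA-F from -0.152 to 0.103 (above 0 without sgRNA Ctrl 2 or sgNPM1A 2) and TAPBP from -0.002 to 0.003. TAPBP, at 0, also turned to -0.04 with library size only, -0.009 with upper quartile, -0.006 with no filter and -0.028 with limma-trend. NPM1 passed both thresholds with limma-trend alone (-0.42). The cause of these differences was not tested. With 1 library left in a group, that library is assumed to vary like the other group. 

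The replicate block gave 4 members higher and 1 lower, as did the crossed block, added after the data were seen because same-numbered libraries had a correlation of -0.13 (-0.52 over genes above 10 CPM). Of 360 refitted counts of the gene lists, 46 moved by more than 1.5 times. Depth limits HLA-F most, at 86 to 110 counts per library.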
